A study of Homo sapiens with 18 samples.

Results

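Whole-cell small RNA was compared between HEK293T cells treated with an siRNA against SSB and cells treated with a scramble siRNA. HEK293T is a human embryonic kidney line, and no other genotype or treatment separated the groups. The titles mark all these libraries as Plus PNK, in knockdown and control cells alike. These 6 of the 18 small RNA libraries of the series were chosen by their titles, as 3 total RNA libraries from knockdown cells (siSSB) and 3 from control cells. Both siRNAs had been delivered with a lipid reagent for 48 h, and the study describes its replicates as biological. The other 12 libraries, from nuclear (nuc) and cytoplasmic (cyto) fractions, are used only to show how features named here behaved there.

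A feature is 1 entry of the noncoding RNA table, and those of at most 500 nt are described first. Features with the same counts in all libraries were taken once, which left 5746 short features with a count in total RNA. Column sums over all features ran from 47662310 to 89632050, and sums over the short features from 3343004 to 6422374. Libraries siSSB replicate 2 and control replicate 1 stood apart in TMM factor, at 1.75 and 0.64, where the others ran from 0.91 to 1.07. In siSSB replicate 2 miRNAs made up 4.48% of the short-feature counts. The other siSSB libraries had 2.55% and 2.02%, and the controls 1.18% to 1.67%. Of 12 miRNA genes that mark liver, muscle, blood or neurons, 6 were at 0 in all 6 libraries. Among the others only MIR9-1 exceeded 8 counts in any library, and their sum was 23 to 28 counts in control and 42 to 120 counts in siSSB libraries.

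La, the protein product of SSB, binds the run of uridines with which a transcript of RNA polymerase III (Pol III) ends when it is released. It shields these ends from exonucleases and takes part in the maturation of precursor tRNAs. Pol III stops at a run of T in the coding strand, so nascent tRNA, 5S rRNA, 7SL, 7SK, U6, Y RNA, vault RNA and snaR transcripts all start out with such an end, while most miRNAs and snoRNAs are cut from Pol II transcripts. Vault RNAs belong to the vault particle, Y RNAs bind the Ro60 protein, and snaR-A is a family of short RNAs from tandem copies on chromosome 19.

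The knockdown itself could not be read from SSB mRNA, since the table holds noncoding RNA features. HSALNG0020274, which lies over SSB, held 12, 15 and 19 counts in the controls and 698, 1267 and 547 counts in the siSSB libraries. It shared 530 of the 1632 windows of 19 nt in the SSB-201 transcript, all between transcript positions 487 and 1115. The feature over the SSB pseudogene SSBL4P, lnc-PRKAB2-5, shared 432 of these windows and went from 7, 3 and 1 to 563, 781 and 423 counts. It passed the low-count filter only through the siSSB libraries. A feature over another pseudogene, lnc-ZC3H12B-16 over SSBL2P, shared 470 windows and held 4, 2 and 9 counts in the controls and 3, 13 and 3 in the siSSB libraries, too few to be tested. Over SSBL3P, AC008127.1 shared 110 windows and held 1, 4 and 1 counts in the controls and 5, 14 and 7 in the siSSB libraries. Over SSBL6P, lnc-SERPINI1-19 shared 89 windows and held 1, 0 and 0 counts in the controls and 0 in each siSSB library. Both features had too few counts to be tested. On the SSB gene itself, lnc-CCDC173-3, which covers positions 1319 to 1650 near the 3′ end on the opposite strand, held 5, 8 and 5 counts in the controls and 0 in each siSSB library, too few to be tested. A count of 0 allows up to 3 counts. Fragments of SSB mRNA and strands of the transfected siRNA cannot be told apart by these counts, because the siRNA sequence is not given in the sources used here. So siSSB names libraries by their label.

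The 3′ ends of the vault RNAs and Y RNAs are shown first, because most members of both groups carry like ends and the groups gave different values. Each line gives the last 20 nt of the annotated RNA and the 10 nt after it, 5′ to 3′ on the RNA strand of hg38 (GRCh38), with runs of 4 or more T in capitals. The positions are chr5:140711354-140711383 (plus), chr5:140718994-140719023 (plus), chr5:140726227-140726256 (plus), chr7:148987126-148987155 (minus), chr7:148983837-148983866 (plus), chr7:148963391-148963420 (plus) and chr7:148941547-148941576 (plus), in the order of the lines.
VTRNA1-1: gggcgctctccagtccTTTTacctctctgg
VTRNA1-2: gggtgctttccagctcTTTTactgctgaag
VTRNA1-3: gggcgctctccagccctcttactgctgaag
RNY1: ctgcacttgactagtcTTTTacgagagttt
RNY3: cttcacttgactagccTTTTgctgtggttt
RNY4: ctaaatttgactggcTTTTTaccatttgat
RNY5: ccgcgcttgactagcttgctgTTTTgcact
VTRNA1-1, VTRNA1-2, RNY1 and RNY3 end on TTTT and RNY4 on TTTTT, RNY5 has TTTT just after its annotated end, and VTRNA1-3 has no run of 4 in this window.

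On knockdown, vault RNA, snaR-A and a subset of tRNAs fell and a set of miRNAs rose, while Y RNA, 5S rRNA, 7SL, 7SK and U6 features gave no call with TMM factors. Of 1761 short features tested, 88 (5.00%) passed the threshold, 21 higher (1.19%) and 67 lower (3.80%) after knockdown by edgeR's quasi-likelihood test, at an adjusted p under 0.05 over all 13883 features tested. Over all features the share was 1.34% (0.367% higher, 0.972% lower). Levels are given as CPM, counts relative to the TMM-scaled column sum. Its ranges in the groups did not overlap for any of the 88, nor for 33.0% of all short features and 19.7% of all features tested. By class, 13 of 14 snaR-A, 3 of 4 vault RNA, 3 of 5 tRX (tRNA-like genes with no anticodon assigned), 43 of 436 tRNA, 2 of 33 other tRNA-like, 1 of 170 C/D box snoRNA and 1 of 3 snaR-B to snaR-I features were lower, and 21 of 277 miRNA features were higher. The remaining call, lnc-RNASE4-1, took 98.1% of its counts from tRNA-Pro-TGG-1-1. In bulk RNA, fewer cells that make an RNA and less of it per cell cannot be told apart.

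**Figure D1:**
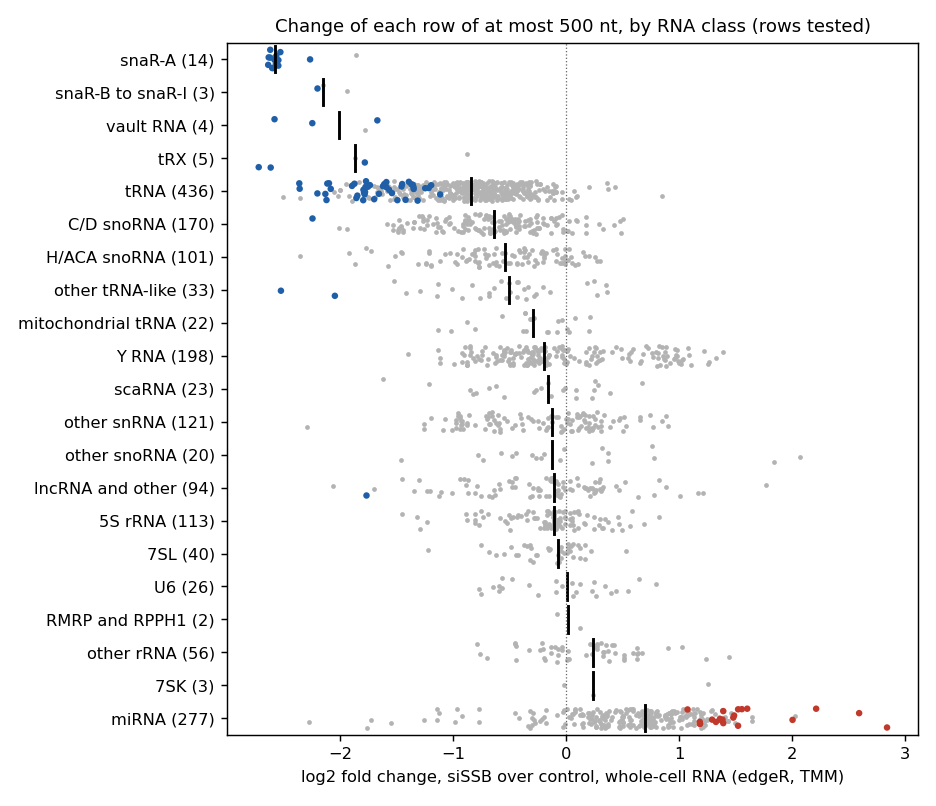
Log2 fold change (siSSB over control, x axis) of every short feature tested, by RNA class with the number tested in brackets. Blue points passed the test as lower, red as higher, grey did not pass, and black bars are class medians, which run from −2.57 for snaR-A to 0.70 for miRNA.

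All these values are relative to a scaling that sets the median of all features near 0. That median was −0.01 with TMM factors, 0.55 with library sizes alone, 0.72 when libraries were scaled to their snoRNA total and −0.52 when scaled to their miRNA total. The split of calls moved with it: 51 features were higher and 135 lower over the whole table with TMM factors, 628 and 88 with library sizes alone, 646 and 49 with the snoRNA total, 612 and 79 with the sum of short features, and 36 and 1930 with the miRNA total. Over these scalings the class median stayed between −2.97 and −1.95 for snaR-A, −2.48 and −1.31 for vault RNA, −1.30 and −0.16 for tRNA, and 0.19 and 1.46 for miRNA. The medians of Y RNA (−0.69 to 0.52) and C/D box snoRNA (−1.08 to 0.04) changed sign. Of 198 Y RNA features, 18 were called higher with library sizes alone and with the sum of short features, 21 with the snoRNA total, and 35 were called lower with the miRNA total.

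The VTRNA1 genes were lower in every siSSB library than in any control. VTRNA1-2, the vault RNA with the most counts, held 35523, 29373 and 25537 counts in the controls and 6149, 4418 and 5801 in the siSSB libraries. Its level went from 485 ± 125 to 81.1 ± 24.7 CPM (SD, n = 3), and the log2 fold change was −2.58 ± 0.38 (adjusted p = 0.0123). VTRNA1-1, which has been linked to autophagy, had 2661, 1873 and 1797 counts in the controls and 494, 377 and 577 in the siSSB libraries (−2.25 ± 0.34, with adjusted p = 0.0128). The third gene of the cluster, VTRNA1-3, whose annotated end lacks the T run, held 82, 66 and 52 counts in the controls and 25, 13 and 30 in the siSSB libraries. At −1.67 ± 0.37 (adjusted p = 0.0491) it lay just past the threshold and was called in 7 of 18 alternative settings, where VTRNA1-1 and VTRNA1-2 were called in all 18. As a share of short-feature counts, vault RNA was 0.583% to 0.665% in the controls and 0.138% to 0.171% in the siSSB libraries, so the groups were apart on this scale as well.

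The whole VTRNA1-2 RNA (chr5:140718926-140719013, plus strand, hg38) is printed as the member with the most counts behind its change, with its terminal T run in capitals.
VTRNA1-2: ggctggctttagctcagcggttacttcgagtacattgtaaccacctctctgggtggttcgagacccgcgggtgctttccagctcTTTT

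Of the 4 Y RNA genes none passed. RNY4 held 51980, 42240 and 52231 counts in the controls and 41917, 35674 and 51603 in the siSSB libraries, and the groups overlapped (log2 fold change −0.29 ± 0.36, adjusted p = 0.763). RNY1 gave −0.34 ± 0.33 (adjusted p = 0.665) and RNY5 −0.44 ± 0.39 (adjusted p = 0.641), also with overlapping levels. RNY3 had 8492, 4124 and 4430 counts against 3292, 2759 and 4012. Its CPM ranges did not overlap, yet at −0.90 ± 0.39 it missed the threshold (adjusted p = 0.272). The 198 Y RNA features tested, most of them copies and pseudogenes, had a median of −0.19, and 122 were below 0. The difference between vault RNA and Y RNA was not tested as such.

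Among the other single-copy Pol III RNAs, RN7SK, which holds the elongation factor P-TEFb, had 3751, 4547 and 5284 counts in the controls and 5264, 5068 and 4141 in the siSSB libraries. Its log2 fold change was −0.02 ± 0.28 (adjusted p = 0.985). RMRP, the RNA of RNase MRP, gave 0.12 ± 0.28 (adjusted p = 0.884), and RPPH1, the RNA of RNase P, −0.08 ± 0.24 (adjusted p = 0.916). In all 3 genes the groups overlapped. None of 113 5S rRNA features passed (median −0.10), nor did any of 40 7SL features (median −0.07) or 26 U6 features (median 0.01). BCYRN1, VTRNA2-1 and RNU6ATAC had too few counts to be tested.

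The snaR-A copies fell together. SNAR-A1 held 7513, 3496 and 3664 counts in the controls and 1038, 420 and 1128 in the siSSB libraries, 79.8 ± 44.1 against 13.2 ± 7.03 CPM (SD, n = 3). Control replicate 1 was the highest of all 6 libraries and siSSB replicate 2 the lowest, and the groups were well apart (−2.60 ± 0.50, adjusted p = 0.0304). SNAR-A14, the copy with the highest mean, changed by −2.53 ± 0.47 (adjusted p = 0.0288). The copies share most of their sequence, and how reads with several positions were treated is not given. The 13 calls are therefore no 13 independent results. The sequence of SNAR-A1 (chr19:47918431-47918550, plus strand, hg38) is shown for its long terminal T run, in capitals.
SNAR-A1: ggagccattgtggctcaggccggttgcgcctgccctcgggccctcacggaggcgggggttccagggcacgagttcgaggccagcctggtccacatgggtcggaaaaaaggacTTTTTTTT

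The less covered snaR features gave the same direction with less certainty. One copy of SNAR-A13 (chromosome 19, start 47907655) had 72, 127 and 56 counts in the controls and 12, 9 and 36 in the siSSB libraries (−2.27 ± 0.49, with adjusted p = 0.044). The other copy of that name (start 47944899), chosen after its values were seen, gave −1.86 ± 0.42 and missed the threshold (adjusted p = 0.0569). SNAR-C3, also chosen after its values were seen, had 15, 13 and 19 counts in the controls and 2, 5 and 4 in the siSSB libraries (−2.20 ± 0.44, with adjusted p = 0.0304). SNAR-B1 (start 50139097) had 99, 40 and 33 counts against 9, 10 and 24, and was not called (−2.15 ± 0.52, adjusted p = 0.0715). Of the 13 snaR-A calls 5 were kept without siSSB replicate 1, and at least 12 without any other single library.

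Most tRNA features lay below 0, and the number that passed the test depended on the scaling. Of 485 short tRNA features with a count, 436 were tested, 426 of them were below 0, and 43 were lower in siSSB against 3.80% of all short features. Their median log2 fold change was −0.84, beside −0.32 over all short features. Copies of 1 isodecoder (genes with the same mature tRNA) cannot be told apart by reads of the mature tRNA, so their counts were also summed. Of 251 isodecoder totals 27 (10.8%) were lower and none higher in the same edgeR fit. Among single tRNA features, scaling to the miRNA total gave 337 calls, scaling to the snoRNA total 10 and library sizes alone 27, all lower. Of the 43 calls 16 were kept without control replicate 2, and 13 without siSSB replicate 1 as well as without siSSB replicate 2. An unadjusted p under 0.05 was reached by 2301 of all 13883 features.

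The calls were spread unevenly over anticodons. Of 13 Lys-TTT features 9 were lower, with 4 of 7 Pro-TGG, 5 of 13 Tyr-GTA, 3 of 6 Thr-TGT, 3 of 7 Thr-AGT and 3 of 23 Asn-GTT features. None of 15 Asp-GTC, 15 Gly-GCC, 9 Glu-CTC, 18 Val-CAC, 10 His-GTG, 11 Phe-GAA or 10 Ser-AGA features passed. Among anticodons with at least 4 features, medians ran from −1.59 for Pro-TGG and −1.56 for Lys-TTT to −0.33 for Asp-GTC and −0.11 for Ser-AGA. Counted as isodecoder totals, 5 of 10 Lys-TTT, 2 of 8 Tyr-GTA, 3 of 5 Thr-TGT, 2 of 5 Thr-AGT, 2 of 20 Asn-GTT and 1 of 2 Pro-TGG passed, since several of the called features are copies of 1 isodecoder. Phe-GAA had a median of −1.15 and no call, so a missing call does not show that a feature was unchanged. For lysine, the TTT anticodon had 9 calls and a median of −1.56, and the CTT anticodon had 1 call among 13 features and a median of −0.80. Differences between anticodons were not tested.

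**Figure D2:**
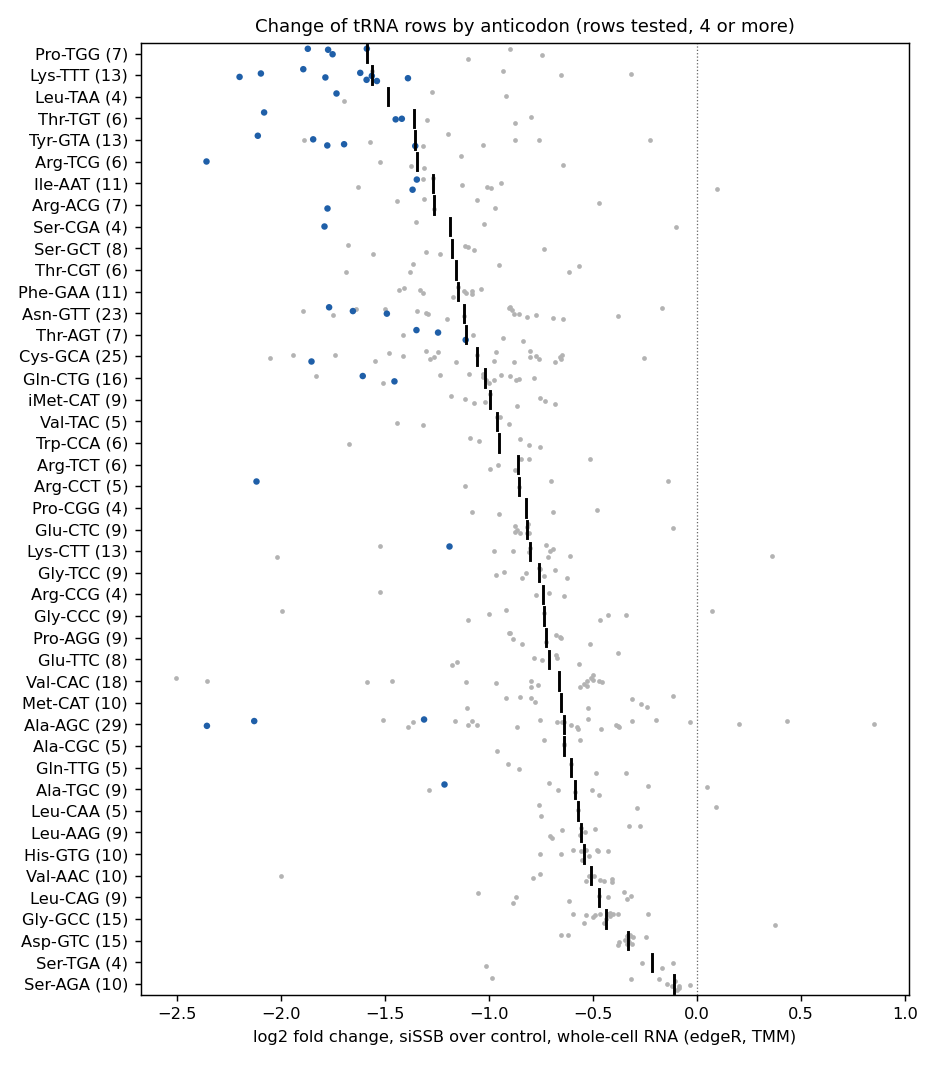
Log2 fold change (siSSB over control, x axis) of tRNA features by anticodon, for anticodons with at least 4 features tested (number in brackets). Blue points passed the test, grey points did not, and black bars are medians, from −1.59 for Pro-TGG at the top to −0.11 for Ser-AGA at the bottom.

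tRNA-Lys-TTT-9-1, a lysine tRNA gene on chromosome 6, held 1332, 1003 and 1121 counts in the controls and 258, 210 and 343 in the siSSB libraries. All siSSB values were below all controls by a wide gap (−2.20 ± 0.31, adjusted p = 0.0123). tRNA-Arg-CCT-1-1, on chromosome 17, had 5128, 4743 and 6173 counts in the controls and 1052, 1202 and 1729 in the siSSB libraries (−2.12 ± 0.32, with adjusted p = 0.0128). A further 3 genes changed about as much. tRNA-Ala-AGC-9-2 had 390, 293 and 425 counts in the controls and 43, 70 and 122 in the siSSB libraries (−2.36 ± 0.35, with adjusted p = 0.0127), and tRNA-Arg-TCG-4-1 from 132, 88 and 138 to 13, 23 and 40 counts (−2.36 ± 0.37, adjusted p = 0.0136). tRNA-Tyr-GTA-4-1, from a cluster of tRNA genes on chromosome 14 and chosen after its values were seen, had 1884, 1592 and 1780 counts against 369, 337 and 601 (−2.11 ± 0.33, adjusted p = 0.0134). The isodecoder totals gave like values where a gene has several copies: the 4 copies of Ala-AGC-9 summed to 828, 627 and 872 counts in the controls and 116, 205 and 286 in the siSSB libraries (−2.07 ± 0.33, adjusted p = 0.0135).

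Some tRNA genes with many counts, unlike tRNA-Arg-CCT-1-1 above, were not called. tRNA-Leu-TAG-1-1 had the highest mean, with 42040, 21676 and 15828 counts in the controls and 7093, 3286 and 12218 in the siSSB libraries. The groups did not overlap, but each spanned several-fold, and the change of −1.92 ± 0.56 missed the threshold (adjusted p = 0.116). The 12 copies of Asp-GTC-1 summed to 107526, 95768 and 120601 counts in the controls and 97727, 88161 and 90535 in the siSSB libraries. Their total changed by −0.34 ± 0.36 (adjusted p = 0.691). The single copy tRNA-Asp-GTC-1-2 on chromosome 12 (start 96035996), with 11569, 10241 and 13341 against 10554, 9528 and 9811 counts, had overlapping CPM ranges. Among families with intron-bearing genes, none of 3 Ile-TAT, 5 Leu-CAA or 6 Arg-TCT features and 5 of 13 Tyr-GTA features passed, with medians of −0.27, −0.57, −0.86 and −1.36. The differences between these families were not tested.

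For tRNA, the sequences of 4 genes are shown to set called beside uncalled ones. Each runs from the first base of the gene on the RNA strand of hg38, with the anticodon in capitals. The first and the last line go on through the trailer to the first run of at least 4 T, also in capitals, while the other 2 genes hold no such run in the 25 nt flank of their feature and are printed to their last base. The positions are chr6:27576067-27576153 (plus), chr17:75034431-75034503 (minus), chr6:26730534-26730606 (plus) and chr12:96036021-96036110 (plus).
tRNA-Lys-TTT-9-1: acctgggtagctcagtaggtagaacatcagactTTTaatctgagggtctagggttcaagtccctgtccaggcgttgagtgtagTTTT
tRNA-Arg-CCT-1-1: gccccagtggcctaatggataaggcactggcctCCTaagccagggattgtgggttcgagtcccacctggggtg
tRNA-Ala-AGC-9-2: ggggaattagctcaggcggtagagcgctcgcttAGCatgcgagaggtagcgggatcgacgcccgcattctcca
tRNA-Asp-GTC-1-2: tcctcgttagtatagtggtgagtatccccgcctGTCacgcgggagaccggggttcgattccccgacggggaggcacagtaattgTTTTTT

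A TTTT run was searched for in the last 30 nt of each feature on the RNA strand alone. It was found in 351 of 436 tRNA features (80.5%), against 39.0% of all 1761 short features tested. Among tRNAs, 29 of 43 called features held it (67.4%) and 322 of 393 uncalled ones (81.9%). The median log2 fold change was −0.85 with and −0.81 without the run. All 14 snaR-A features and 11.2% of miRNA features held one. A match is a matter of letters in this window only, and a termination site farther downstream would be missed.

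tRNA-like genes included some of the steepest declines. tRX-Tyr-NNN-1-1, in the chromosome 14 cluster, had 285, 127 and 89 counts in the controls and 23, 15 and 52 in the siSSB libraries (−2.61 ± 0.54, with adjusted p = 0.0368). Control replicate 1 was more than 3 times control replicate 3 here, and the siSSB libraries still lay below all controls. tRX-Cys-NNN-4-1 had 3228, 2118 and 2809 counts in the controls and 1055, 572 and 899 in the siSSB libraries (−1.78 ± 0.36, adjusted p = 0.0333). tRX-Ala-NNN-5-1, chosen after its values were seen, had 31, 11 and 13 against 4, 3 and 2 counts, close to the floor of 3 (−2.72 ± 0.59, adjusted p = 0.0446). None of the 22 mitochondrial tRNAs, which are transcribed in the mitochondrion by another polymerase, passed (median −0.29).

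1 box C/D snoRNA, an RNA class that guides 2′-O-methylation of rRNA, passed the test. SNORD36C, in an intron of the ribosomal protein gene RPL7A, held 1246, 658 and 612 counts in the controls and 196, 139 and 242 in the siSSB libraries. Its level went from 13.7 ± 6.97 to 2.87 ± 1.08 CPM (SD, n = 3), with no overlap (−2.25 ± 0.39, adjusted p = 0.0222), and it was called in all 18 alternative settings. Its neighbours in the same host gene, chosen after the values were seen, did not pass. SNORD24 gave −0.89 ± 0.38 (adjusted p = 0.265), SNORD36A −1.10 ± 0.43 (adjusted p = 0.222) and SNORD36B −0.44 ± 0.28 (adjusted p = 0.501), each with overlapping groups.

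The 4 snoRNAs of the host gene are printed because they come from 1 transcript and gave different values. They are from the plus strand of hg38 at chr9:133350847-133350912, chr9:133350456-133350528, chr9:133350095-133350168 and chr9:133349396-133349470, in this order, with the C box core TGATG and the D box CTGA in capitals.
SNORD36C: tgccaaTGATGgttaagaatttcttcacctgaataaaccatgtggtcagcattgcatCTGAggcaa
SNORD36A: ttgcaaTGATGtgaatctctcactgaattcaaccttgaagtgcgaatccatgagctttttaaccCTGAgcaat
SNORD36B: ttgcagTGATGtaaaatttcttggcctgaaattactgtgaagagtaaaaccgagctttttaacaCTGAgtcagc
SNORD24: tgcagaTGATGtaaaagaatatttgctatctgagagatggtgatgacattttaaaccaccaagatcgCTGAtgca
Both letter runs were searched for on the RNA strand, TGATG in the first 15 nt and CTGA in the last 12 nt inside the flanks, and they do not overlap each other. TGATG was found in 130 of 170 C/D box features (76.5%) and 9.82% of all short features tested, and CTGA in 146 of 170 (85.9%) and 13.2%. So the called snoRNA carries the boxes that most of its class carry.

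The C/D class as a whole had a median of −0.63, and H/ACA box snoRNAs, which guide pseudouridylation, had 0 calls among 101 features and a median of −0.54 (edgeR quasi-likelihood test). SNORD44, the C/D feature with the most counts, had 641016, 564376 and 609430 counts against 514196, 343820 and 559414 (−0.45 ± 0.44, adjusted p = 0.671). SNORD7 (Z30) and SNORA74A (U19) serve as reference RNAs. They gave −0.67 ± 0.28 (adjusted p = 0.25) and −0.71 ± 0.41 (adjusted p = 0.434), with overlapping groups. SNORA18, the H/ACA feature with the highest mean, ran from 8852 to 1247 counts within the controls alone.

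miRNAs were the only class with higher calls among short features. The 21 features belong to 17 of 212 miRNA genes tested, and 190 of the 212 genes lay above 0 under TMM factors. Among the 17 genes, at least MIR345, MIR542, MIR23B and MIR589 would not have passed the low-count filter on their controls alone. A miRNA feature here takes in reads of both arms of the hairpin where it spans them, and strand was not used, so arms are not separated. Mature sequences are given for the called genes MIR340, MIR191, MIR424, MIR345, MIR26A1, MIR26A2, MIR26B and MIR484. The seed (bases 2 to 8) is in capitals, and the sequences are from RefSeq on GRCh38.p14. Mature sequences were matched for all 17 genes. The features of MIR345, MIR26A1 and MIR26B hold the 3p arm whole and the 5p arm only in part, so both arms are printed for them.
miR-340-5p: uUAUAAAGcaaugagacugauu
miR-191-5p: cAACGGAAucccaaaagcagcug
miR-424-5p: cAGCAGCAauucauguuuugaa
miR-345-5p: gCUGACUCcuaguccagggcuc
miR-345-3p: gCCCUGAAcgaggggucuggag
miR-26a-5p: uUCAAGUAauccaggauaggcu
miR-26a-1-3p: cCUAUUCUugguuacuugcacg
miR-26b-5p: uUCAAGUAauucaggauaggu
miR-26b-3p: cCUGUUCUccauuacuuggcu
miR-484: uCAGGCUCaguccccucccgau
The 5p seed UCAAGUA is shared by 3 of the 17 genes, MIR26A1, MIR26A2 and MIR26B, and CUAUUCU in the 3p arms by 2 of them, MIR26A1 and MIR26A2. Every other seed occurs once among them.

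MIR340, from an intron of RNF130, held 92, 89 and 127 counts in the controls and 368, 620 and 391 in the siSSB libraries. The lowest siSSB library was more than 2 times the highest control, and the log2 fold change was 2.01 ± 0.23 (adjusted p = 0.00427). It was the only miRNA gene called in all 18 alternative settings. MIR191 had 259, 346 and 275 counts in the controls and 586, 1574 and 755 in the siSSB libraries (1.52 ± 0.29, with adjusted p = 0.0304), and MIR424, of the miR-16 seed family, from 68, 53 and 85 to 146, 342 and 167 counts (1.48 ± 0.28, adjusted p = 0.0292). Both had siSSB replicate 2 far above the other siSSB libraries.

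The miR-26 genes, chosen after their values were seen, gave almost the same value. MIR26A1 had 581, 543 and 668 counts in the controls and 1182, 2860 and 1325 in the siSSB libraries (1.38 ± 0.29, adjusted p = 0.0368). MIR26A2 and MIR26B gave 1.36 ± 0.28 (adjusted p = 0.0381) and 1.37 ± 0.29 (adjusted p = 0.0395). MIR26A1 and MIR26A2 give the same mature 5p RNA, which lies whole in the MIR26A2 feature and in part in the MIR26A1 feature, so the 2 values may not be independent. MIR345 and MIR542, also outside the naming rule, rose most but from few reads: 5, 7 and 6 to 28, 40 and 26 counts (2.21 ± 0.32, adjusted p = 0.0123), and 1, 3 and 1 to 14, 17 and 11 counts (2.84 ± 0.57, adjusted p = 0.0324).

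**Figure D3:**
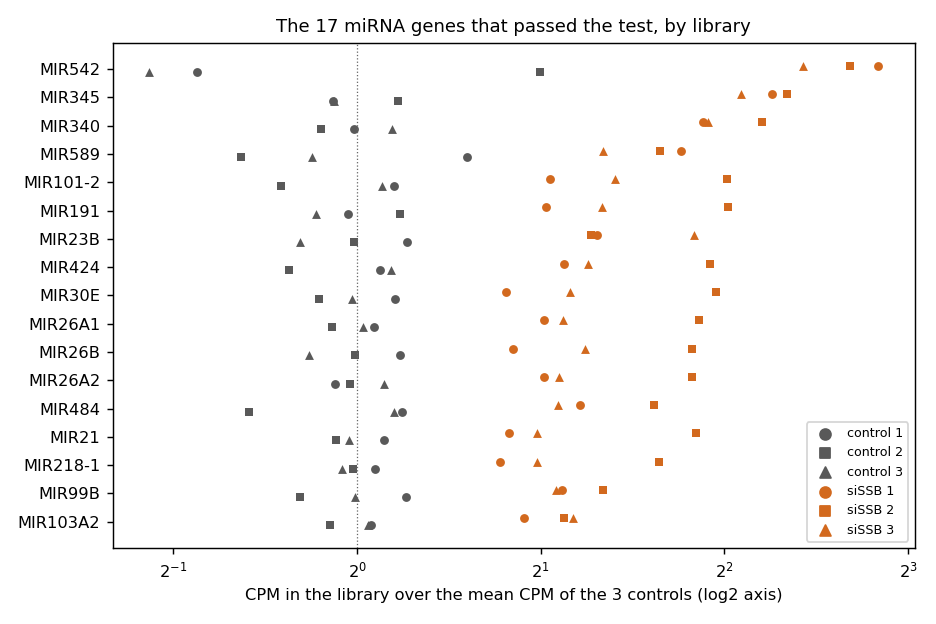
CPM of each library over the mean CPM of the 3 controls (log2 x axis) for the 17 miRNA genes that passed the test. Grey symbols are control and orange symbols siSSB libraries, with 1 symbol shape per replicate number, and siSSB replicate 2 (orange squares) lies farthest right for most genes.

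1 library weighed on the size of the miRNA changes. By raw count siSSB replicate 2 was the highest of the 6 libraries in 20 of the 21 called features, and by CPM in 16 of 21. Without it 8 of the 21 remained called, 5 without control replicate 3, and only 2 without control replicate 2. MIR148A, the miRNA with the most counts, shows the spread: 3113, 3193 and 2914 counts in the controls against 5477, 16424 and 6310, a log2 fold change of 1.39 ± 0.36 that missed the threshold (adjusted p = 0.0796). The median over all miRNA features was 0.70, and ran from 0.62 to 0.81 when single libraries were left out.

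The miRNA families listed for this comparison had positive medians and almost no call. Of 11 tested genes of miR-17-92 and its paralogues, an oncogenic cluster that is strongly expressed in many cancer lines, none passed, 9 lay above 0 and the median was 0.76. MIR18A (−0.45) and MIR19B1 (−0.23) lay below 0 in the same primary transcript as MIR92A1 (0.76). All 10 tested let-7 genes lay above 0 with a median of 0.70 and no call, as did the 5 genes of miR-10 and miR-196, which sit in the HOX clusters (median 0.91). Among 5 tested miRNAs whose hairpins form without Drosha, MIR484 rose from 75, 46 and 87 to 157, 280 and 151 counts (1.33 ± 0.28, adjusted p = 0.0369), and the list ran from −2.28 to 1.33. The low end was MIR6516, which was not called and had few reads. It held 54, 12 and 12 counts in the controls and 7, 7 and 4 in the siSSB libraries (−2.28 ± 0.66).

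**Figure D4:**
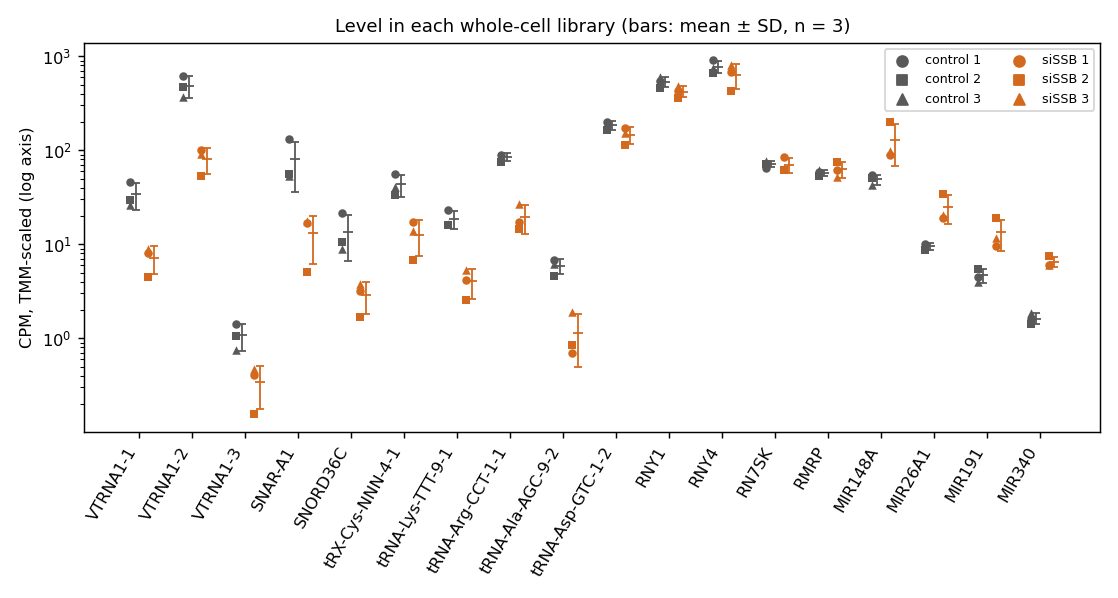
Level (CPM, log y axis) of 18 named RNAs in each library: grey control, orange siSSB, 1 symbol shape per replicate number, with mean ± SD (n = 3) beside the points. VTRNA1-1 to tRNA-Ala-AGC-9-2 show siSSB points below all control points, tRNA-Asp-GTC-1-2, RNY1, RNY4, RN7SK and RMRP overlap, and the miRNAs at the right lie above the controls.

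Features over 500 nt gave 72 calls among 9656 distinct features tested (0.746%), 21 higher (0.217%) and 51 lower (0.528%), and 27 of the 72 held at least 50% of their counts in a short feature inside them. By the naming rule 5 rising and 5 falling features without such a short feature were taken. Of the rising ones, besides the features over SSB and its pseudogene, MIR503HG changed by 1.43 ± 0.25 (adjusted p = 0.0222), but the 7 short miRNA features in or across it, MIR424 the largest, summed to 104% of its counts. A 7SL-like entry on chromosome X (1.12 ± 0.24, adjusted p = 0.0395) had 80.1% of its counts in short features, and NONHSAG031167.2 (1.10 ± 0.24, adjusted p = 0.0486) had 90.8%, from MIR103A2, which crosses its edge.

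Of the falling ones, lnc-C11orf24-4, a feature of 502 nt on chromosome 11 with no short feature in it, had 172, 125 and 116 counts in the controls and 13, 17 and 36 in the siSSB libraries (−2.78 ± 0.39, with adjusted p = 0.0123). AC007402.1, a lncRNA gene on chromosome 2, had 450, 287 and 302 counts in the controls and 60, 54 and 100 in the siSSB libraries (−2.40 ± 0.35, with adjusted p = 0.0123), with only 0.718% of its counts in short features. HSALNG0099819, in the chromosome 14 region of the tRNA cluster, had 2038, 1610 and 2022 counts against 726, 415 and 752 (−1.67 ± 0.34, adjusted p = 0.0357) and no short feature in it. In these 3 features the siSSB libraries lay below all controls. The other 2, lnc-IZUMO2-2 (−2.57 ± 0.49, adjusted p = 0.0304) and NONHSAG043240.2 (−1.76 ± 0.35, adjusted p = 0.0305), had 98.2% of their counts in snaR-A copies and other short features and 99.8% mostly in tRNA-Arg-ACG-1-3, which crosses its edge.

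In addition, AC067752.1 on chromosome 10, chosen after its values were seen, had 0, 3 and 0 counts in the controls and 28, 60 and 22 in the siSSB libraries (4.86 ± 0.67, with adjusted p = 0.0123) and shared none of the 19-nt windows of SSB-201. The controls were at or under the floor of 3 counts, so this fold change depends on the model's prior count. AC067752.1 also passed the low-count filter only through the siSSB libraries.

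The 88 called short features were then looked up in the fraction libraries, each fitted on its own. In the cytoplasm 86 were tested, all 86 had the sign they had in total RNA, and 17 were called, where 0.291% of all features were called. The share of all features with the same sign was not taken, so agreement in sign has no background here. Whole classes shifted together in total RNA, with 426 of 436 tRNA features below 0 and 244 of 277 miRNA features above 0. The fractions may come from the same transfections and are not taken as independent replication. In the nucleus 62 were tested, 50 had the same sign and 18 were called, 13 of them snaR-A, where 0.378% of all features were called. These 13 are near-identical copies and not 13 independent calls. None of the 88 was called in the opposite direction in either fraction. For the called tRNAs the median was −1.56 over 43 tested in the cytoplasm and −0.66 over 29 tested in the nucleus. For the 13 snaR-A calls it was −0.98 in the cytoplasm and −2.32 in the nucleus. The cytoplasmic value leaned on 1 library in the copies with most counts. SNAR-A1 held 1280, 1180 and 2774 counts in the cytoplasmic controls and 1284, 1224 and 224 in siSSB. Control replicate 3 also had the largest cytoplasmic column sum (44712500). For the 3 vault RNA calls the median was −1.83 in the cytoplasm and −1.80 in the nucleus. SNORD36C was lower in the nucleus (−1.76 ± 0.29, adjusted p = 0.00709) and gave −1.93 ± 0.38 in the cytoplasm (adjusted p = 0.0766). Of the miRNA calls, all 21 were positive in the cytoplasm with a median of 0.46 and no call, while 3 of 11 tested in the nucleus were positive with a median of −0.02. The 21 features are of 17 genes. Their cytoplasmic siSSB libraries were far apart, with replicate 3 high and replicate 2 low. MIR21 held 1624, 1440 and 788 counts in the controls and 1270, 553 and 2817 in siSSB, and MIR26B 363, 338 and 216 against 383, 167 and 815. The differences between fractions were not tested here.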

How the data were processed

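Small RNA libraries of HEK293T cells were grouped by their titles, which also gave replicate numbers. RNA had been isolated with a fractionation kit and libraries prepared with a commercial small RNA kit. Titles mark a PNK step without more detail. The authors deposited 1 table of raw counts, whole reads per noncoding RNA feature with no normalization. The submitters' processing notes name Bowtie2, bedtools and hg38, without versions. How reads with several positions were treated is not given in the sources used here.

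Coordinates of features include flanks of about 25 nt. Reads in overlapping features were counted in each and strand was not used, so column sums are not read numbers. Near-identical copies cannot be told apart by most of their reads. No molecular identifiers are described, and the floor of 3 counts covers counting error only.

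Counts were tested with edgeR 4.0.16 (limma 3.58.1, R 4.3.3) by the quasi-likelihood F-test with TMM factors and filterByExpr, siSSB total against control total, on the whole table of 175935 features. The Benjamini-Hochberg adjustment took in all 13883 features tested and, for isodecoder totals, these and the totals together. An adjusted p under 0.05 counted as changed. The study names edgeR's exact test for its mRNA data, and that test was an alternative here. CPM is relative to the TMM-scaled column sum. Errors of log2 fold changes are standard errors derived from the F statistic. An exact permutation test of 3 against 3 cannot go below 0.1 and was not used. Low-count filtering left 1761 of 5746 short distinct features. A feature that passed only through its high group could not be flat.

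Features named are, per class, up to 3 rising and 3 falling short features with the largest change, taken from called features that average 50 counts or more and whose CPM ranges do not overlap, near-identical copies named once. The rule adds the feature with the highest mean of each class, SNORD7, SNORA74A, the Pol III RNAs made from 1 gene each, 5 rising and 5 falling longer features, and features over SSB and its pseudogenes. Members, lists and rules were chosen with earlier results of these data known. Alternatives were other scalings, filters and feature sets, DESeq2 1.42.0, edgeR's exact test, all 18 libraries in 1 fit, a replicate block and each library left out. Sequences were read with pysam 0.24.0 under Python 3.11.15 from hg38 and from RefSeq, and figures drawn with matplotlib 3.10.9.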

Additional observations from a re-analysis of the deposited data

How the results depend on the processing

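Scaling, filter and single libraries set how many features passed. Over all features 186 passed, and 716 with library sizes alone, 695 with the snoRNA total, 1966 with the miRNA total, 691 with the sum of short features, 626 without the filter, 566 with DESeq2's Wald test and 533 with edgeR's exact test. For short features these counts were 88, and then 175, 155, 654, 170, 303, 195 and 209, and 168 with only short features in the fit. For isodecoder totals they were 27, and then 7 with the snoRNA total, 176 with the miRNA total, 88 without the filter, 67 and 74 with the other tests, and 46 with all 18 libraries in 1 fit. Leaving out 1 library gave 69 to 303 features, 34 to 157 short features and 7 to 71 totals. Short calls numbered 34 without control replicate 2, 153 without control replicate 3, 37 without siSSB replicate 2 and 157 without siSSB replicate 3, and without siSSB replicate 1 they were 36 higher and 26 lower. The cause was not tested. With all 6 libraries the median log2 fold change was −0.32 over short features and −0.84 over tRNA features. These medians were −0.13 and −0.60 without control replicate 1, and −0.16 and −0.55 without siSSB replicate 2. Without any other single library they ran from −0.41 to −0.29 and from −1.09 to −0.77. In all, 13 short features were called in every alternative: VTRNA1-1, VTRNA1-2, 5 SNAR-A14 copies, SNORD36C, MIR340 and the tRNAs Ala-AGC-9-2, Lys-TTT-9-1, Arg-CCT-1-1 and Tyr-GTA-4-1.

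Deviations from the group means correlated with r = 0.06, 0.31 and −0.63 between same-numbered control and siSSB libraries. Control replicate 1 deviated most like siSSB replicate 3 (r = 0.67). With means of 3 libraries these values cannot settle whether the numbers mark pairs, and the titles do not say. The replicate block gave 199 features (99 short, 39 totals).

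Features that were not called changed sign under some scalings. With library sizes alone, the snoRNA total and the sum of short features, in this order, the log2 fold changes were 0.45, 0.62 and 0.46 for RNA5S8 (0.27 with only short features in the fit). They were 0.50, 0.66 and 0.49 for RN7SK (0.31, and 0.0036 with identical features once) and 0.48, 0.64 and 0.48 for SCARNA2 (0.31 and 0.0014). RPPH1 gave 0.51, 0.69 and 0.51 (0.29), RN7SL1 0.21, 0.37 and 0.21 (0.025), RNY4 0.20, 0.34 and 0.21 (0.050) and U3_snoRNA_URS0000174BD8 0.60, 0.80 and 0.60 (0.35). RNY1 gave 0.18, 0.33 and 0.17, RNY5 and ENSG00000286171.1, which holds it, 0.026, 0.16 and 0.033, SNORD44 0.019, 0.16 and 0.023, RNU6-1 0.082, 0.24 and 0.087, RNA5-8SN1 0.058, 0.21 and 0.061, and ENSPTRG00000042655.1 0.20, 0.38 and 0.20. With the snoRNA total alone SNORD7 gave 0.014 and SNORA74A 0.099, and with the miRNA total RMRP gave −0.39. Without single libraries RNA5S8 ran from −0.26 to 0.18, RN7SK from −0.16 to 0.17, SNORA74A from −1.06 to 0.026, RNY4 from −0.50 to 0.039, U3_snoRNA_URS0000174BD8 from −0.13 to 0.076 and SCARNA2 from −0.23 to 0.21. No feature that passed the test and is named by the rule changed sign in any alternative.

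Features under about 20 counts, such as MIR345, MIR542, SNAR-C3 and tRX-Ala-NNN-5-1, rest on few reads per library. MIR345 and MIR542 passed the low-count filter only through the siSSB libraries, and SNAR-C3 and tRX-Ala-NNN-5-1 only through the controls. MIR23B, with 10, 9 and 8 counts in the controls and 22, 29 and 33 in the siSSB libraries, also passed only through siSSB. So did lnc-PRKAB2-5 over SSBL4P. MIR589, with 15, 7 and 10 counts in the controls, could not have passed on the controls alone. This list is not complete.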
